A study of Mus musculus with 172 samples.

Results

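The perilipins are the 4 genes *Plin2*, *Plin3*, *Plin4* and *Plin5*, taken by name from the expression tables of a sleep deprivation (SD) experiment in mice. *Plin2*, *Plin3* and *Plin4* are listed among the 14896 genes of the cortex tables and all 4 members among the 14107 genes of the liver tables, whereas *Plin1*, the remaining family member, is listed in neither tissue. Mice of 33 BXD/RwwJ lines, which are inbred recombinants of the strains C57BL/6J (B6) and DBA/2J (D2), of both parental strains and of their reciprocal F1 crosses were either kept awake by gentle handling for 6 h from light onset (SD) or left undisturbed (Ctr). Cerebral cortex and liver were taken from both groups 6 h after light onset (zeitgeber time, ZT6), so SD and Ctr mice were sampled at the same time of day but differed in sleep loss, in handling and in the room, since Ctr mice stayed in a separate one. RNA from the mice of a line and condition was pooled, and each pool gave 1 library per tissue. There were 39 pools per condition and tissue, namely 33 BXD/RwwJ pools, 2 pools each of B6 and D2, which were sampled at the start and at the end of the collection period, and 1 pool of each F1 cross, here called B6D2F1 (C57/BL/J x DBA/2J) and D2B6F1 (DBA/2J x C57/BL/J). A further 4 BXD/TyJ pools per condition and tissue were described apart. BXD79, BXD85 and BXD101 were pooled from fewer mice than the other lines. A pool is an average over few mice, so the spread between pools holds part of the variation between single mice but does not measure it. In tissue RNA, fewer cells of a type cannot be told apart from less RNA per cell.

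Perilipins coat lipid droplets, the organelles in which cells store triglycerides and cholesterol esters, and regulate the access of lipases to the stored lipid. *Plin2* encodes the droplet coat protein found in most tissues, and its amount follows the lipid load of hepatocytes and glia. *Plin3* encodes a largely cytosolic protein that moves onto nascent droplets, *Plin4* a protein with a long amphipathic repeat that is best known from adipocytes, and *Plin5* the perilipin of tissues that burn fatty acids, where it links droplets with mitochondria. Several perilipin genes are regulated by the fatty acid sensing receptors of the PPAR family. In the mm9 build of the tables, *Plin4* (chr17:56240014-56249225), *Plin5* (chr17:56251024-56257019) and *Plin3* (chr17:56418385-56429934) lie on the minus strand of chromosome 17 within 189921 bases, and *Plin2* (chr4:86294290-86315964) lies on the minus strand of chromosome 4 (GENCODE vM1). *Plin4* and *Plin5* are direct neighbours, 1798 bases apart. Their union of annotated exons comprises 5755 bases for *Plin4*, 2087 for *Plin5*, 2159 for *Plin3* and 3512 for *Plin2*.

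The upstream sequences of the 3 members on chromosome 17 are shown because *Plin4* and *Plin5* rose together in liver whereas *Plin3* did not. They are RefSeq promoter sequences (up to 250 bases before the annotated start, GRCm38.p6), printed 5′ to 3′ on the gene's strand. Each was found once and without mismatch on the minus strand of chromosome 17 in mm9, and other chromosomes were not searched for them. They lie at chr17:56249206-56249455 for *Plin4*, chr17:56257020-56257221 for *Plin5* and chr17:56429935-56430184 for *Plin3*. The last 20 bases of the *Plin4* stretch, which hold its CCAAT match, lie inside the *Plin4* gene as GENCODE annotates it. Capitals mark matches of CCAAT and of the nuclear receptor motif AGGTCA on either strand.
Plin4: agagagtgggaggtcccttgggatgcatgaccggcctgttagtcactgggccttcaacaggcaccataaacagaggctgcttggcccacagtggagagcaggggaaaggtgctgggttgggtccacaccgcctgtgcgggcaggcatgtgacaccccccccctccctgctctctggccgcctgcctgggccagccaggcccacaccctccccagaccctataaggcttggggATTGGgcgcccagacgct
Plin5: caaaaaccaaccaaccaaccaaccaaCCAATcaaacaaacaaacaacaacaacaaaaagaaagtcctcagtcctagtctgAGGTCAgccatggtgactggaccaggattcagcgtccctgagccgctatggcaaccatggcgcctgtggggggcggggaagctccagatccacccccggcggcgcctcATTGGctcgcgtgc
Plin3: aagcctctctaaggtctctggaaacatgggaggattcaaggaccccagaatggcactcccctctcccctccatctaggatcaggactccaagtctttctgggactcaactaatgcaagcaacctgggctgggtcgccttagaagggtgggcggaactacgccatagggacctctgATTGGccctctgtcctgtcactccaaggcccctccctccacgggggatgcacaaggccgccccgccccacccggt
A CCAAT match was found upstream of each of the 4 members, and 33.8% of 32851 RefSeq promoters of this length hold one. A second RefSeq start of *Plin5*, whose window lies inside the annotated gene, had no match of any motif searched. An AGGTCA match lies upstream of *Plin5* and of *Plin2*, as in 4607 of the 32851 promoters (14%). The glucocorticoid receptor motif AGAACA, present in 16.1% of the promoters, its palindrome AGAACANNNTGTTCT (0.00913%), the repeat AGGTCANAGGTCA to which PPAR dimers bind (0.0335%), the E-box CACGTG (6.02%) and TATAAA (12.4%) had no match in these windows, and motifs may lie outside them. Each motif was searched on both strands and on its own, so that a longer motif also counts for the shorter motif it holds. Of the 100-base stretches of the longest *Plin4* transcript, 8.66% occur more than once within that transcript, and no such stretch of the 4 members was found in an annotated protein-coding transcript of another gene.

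Recovered library totals ranged from 18995492 to 28998853 reads in cortex and from 4681101 to 8269401 reads in liver. Of the hepatocyte marker genes, 5 of 5 are listed in liver and 0 of 5 in cortex. Reads of the genes read most densely along their exons rose little with the library total in liver, with a median slope of 0.18 on log2 scales over 100 such genes and of 1.16 over the remaining well-covered genes. The slope was 0.32 for *Plin2* in liver, at 0.450 reads per exonic base, 0.65 for *Plin5* and 0.78 for *Plin3*. For *Plin4*, it was 2.06 in liver and 1.69 in cortex. The part of this in their changes was not tested.

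Expressed per length, *Plin3* was the most abundant member in cortex. In Ctr pools, it reached 4.72 ± 0.592 (s.d., n = 39) CPM (read counts scaled to library size) per kb of exon, *Plin2* reached 1.28 ± 0.180 and *Plin4* 0.366 ± 0.218. After SD, the values were 5.48 ± 0.741 for *Plin3*, 1.41 ± 0.173 for *Plin2* and 2.64 ± 1.60 for *Plin4*, so that *Plin4* moved from below *Plin2* to a mean above it, with overlapping spreads. The exon union of *Plin2* (3512 bases) is longer than its longest protein-coding transcript (1888 bases). Both lengths are 5755 bases for *Plin4*. On the shorter length *Plin2* would be higher in both tissues, and in SD cortex its mean would come close to that of *Plin4*. In liver, the order in Ctr pools was *Plin2* (65.5 ± 6.81), *Plin3* (52.4 ± 3.37), *Plin5* (39.1 ± 3.85) and *Plin4* (0.912 ± 0.667). After SD, *Plin2* was at 70.1 ± 8.67, *Plin5* at 54.7 ± 9.57, *Plin3* at 49.7 ± 4.70 and *Plin4* at 1.99 ± 1.27 (s.d., n = 39), and *Plin5* and *Plin3* did not differ beyond their spread. The tables of cortex and liver were normalized separately, so levels were not tested between tissues.

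**Figure D1:**
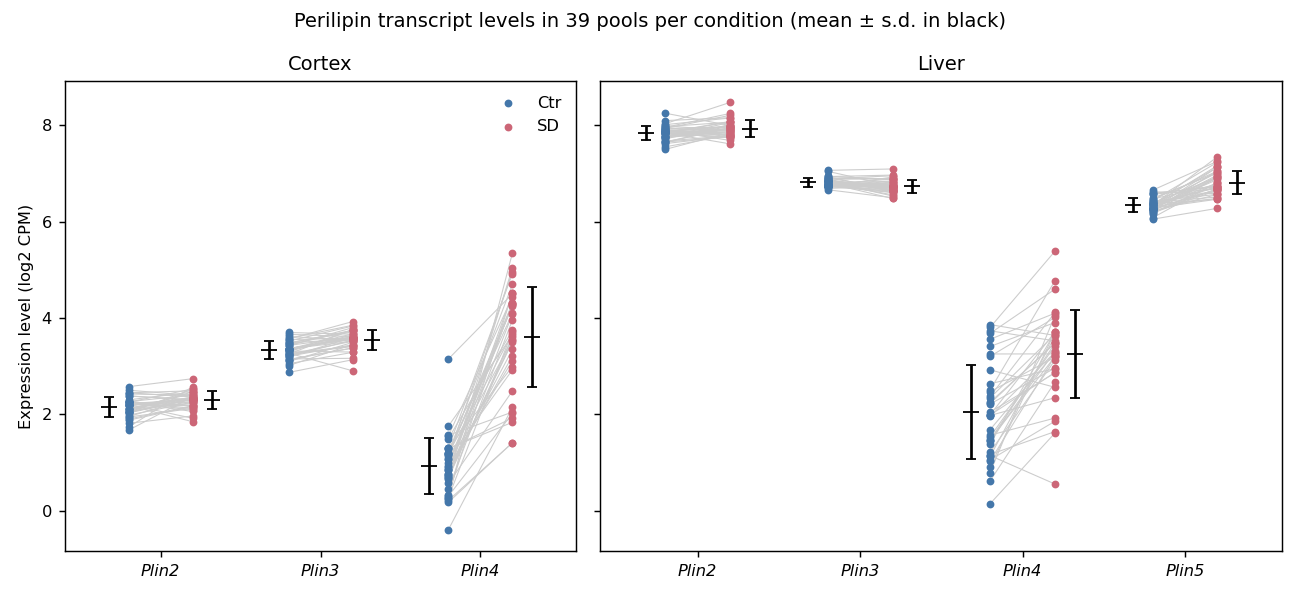
Expression level in log2 CPM of each perilipin in the Ctr pools (blue) and SD pools (red) of cortex and liver, with a grey line joining the pools of a line and the mean ± s.d. of 39 pools in black. *Plin4* rose in 39 of 39 pools in cortex and 35 of 39 in liver, and *Plin5* rose in 38 of 39 pools in liver.

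Sleep deprivation raised *Plin4* in cortex more than any other member in either tissue. In Ctr cortex, its level ranged from -0.39 log2 CPM in BXD48a (96) over a median of 0.92 to 3.15 in BXD65a (97), and in SD cortex from 1.41 in BXD51 over a median of 3.73 to 5.35 in BXD95. BXD65a (97) stood apart among the Ctr pools, and 28 of 39 SD pools lay above it. The median number of *Plin4* reads was 41 in Ctr pools and 294 in SD pools. The log2 fold change was 2.67 (SE 0.19, adjusted p = 1.93e-22, limma), or 6.36-fold, with a rise in 39 of 39 pools, and it ranked 3 by size among all genes tested. Over 12 alternatives it ranged from 2.18 to 2.87. In cortex, 33.0% of all genes passed the test with a higher level in SD, and 68.4% passed it in either direction, so the 3 of 3 listed members that passed must be read against this share.

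In liver, *Plin4* was weakly expressed and rose less. Its level ranged from 0.15 log2 CPM in BXD43 over a median of 1.99 to 3.86 in BXD70 among Ctr pools, and from 0.56 in BXD45 over a median of 3.31 to 5.39 in BXD79 among SD pools, so the groups overlapped widely. A median of 27 reads in Ctr pools and 66 reads in SD pools stood behind these values. The log2 fold change was 1.20 (SE 0.21, adjusted p = 1.24e-06, limma), or 2.30-fold, and 35 of 39 pools rose. *Plin5*, the oxidative tissue perilipin next to it, ranged from 6.05 over 6.34 to 6.65 log2 CPM in Ctr pools and from 6.28 over 6.77 to 7.35 in SD pools (lowest, median and highest), and 29 of 39 SD pools lay above the highest Ctr pool. It rose by 0.47 on the log2 scale (SE 0.045, adjusted p = 5.66e-15, limma), or 1.38-fold, in 38 of 39 pools. The liver of BXD85 was the exception, with a change of -0.04.

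*Plin2* and *Plin3*, the broadly expressed members, changed little. In cortex, *Plin2* ranged from 1.67 over 2.19 to 2.58 log2 CPM in Ctr pools and from 1.85 over 2.31 to 2.74 in SD pools, and its rise of 0.14 (SE 0.044, adjusted p = 0.00312) was seen in 27 of 39 pools. *Plin3* ranged from 2.87 over 3.36 to 3.70 log2 CPM in Ctr cortex and from 2.91 over 3.58 to 3.93 in SD cortex, and rose by 0.21 (SE 0.044, adjusted p = 1.14e-05) in 34 of 39 pools. Both differences were smaller than the range of the pools of a condition, and the groups overlapped.

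In liver, the same members moved in different directions. *Plin2* ranged from 7.50 over 7.85 to 8.25 log2 CPM in Ctr pools and from 7.62 over 7.92 to 8.48 in SD pools, and rose by 0.096 (SE 0.036, adjusted p = 0.0224) in 28 of 39 pools. *Plin3* ranged from 6.66 over 6.80 to 7.07 log2 CPM in Ctr pools and from 6.48 over 6.72 to 7.09 in SD pools, and fell by 0.078 on the log2 scale (SE 0.026, adjusted p = 0.0103) in 25 of 39 pools. Thus 3 of 4 members passed the test with a higher level in SD liver, against 21.5% of all genes, and 1 of 4 with a lower level, against 22.6% of all genes (44.2% in either direction). Under 12 alternatives, the adjusted p in liver reached up to 0.0407 for *Plin2* and 0.0403 for *Plin3*, so both changes were close to the threshold.

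The responses of cortex and liver were compared within pools for the 3 members listed in both tissues. The change of *Plin4* was 1.47 smaller in liver than in cortex on the log2 scale (liver minus cortex -1.47, SE 0.16, adjusted p = 9.07e-11, limma), with a smaller change in liver in 36 of 39 pools. For *Plin3*, the rise in cortex and the fall in liver differed by -0.29 (SE 0.034, adjusted p = 6.46e-10), also in 36 of 39 pools. For *Plin2*, the difference was -0.046 with a 95% interval from -0.13 to 0.038 (adjusted p = 0.365), and a difference was not detected. Of all genes listed in both tissues, 57.6% passed this test, against 2 of the 3 members.

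The lines differed widely in the *Plin4* response of cortex. Among the 33 BXD/RwwJ lines, the change had a mean of 2.54 and an s.d. of 1.09 on the log2 scale, and this s.d. ranked 34 among 14896 genes, whose median was 0.15. BXD89 rose least, by 0.48 (1.39-fold, from 61 to 95 reads), followed by BXD45 with 0.54 and BXD67 with 0.64. BXD95 rose most, by 5.07 (33.7-fold, from 28 to 917 reads), preceded by BXD90 with 4.18 and BXD73b (103) with 3.84. In 11 lines *Plin4* rose more than 8-fold, and in 3 lines less than 2-fold. The lines differed more after SD than before, with an s.d. of the level of 0.61 in Ctr pools and 1.07 in SD pools.

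Each line had 1 pool per condition, so a difference between lines could not be tested line by line, and the repeated parental pools served as a measure of error. The changes of the repeated pools differed by 0.18 in B6 and 0.48 in D2, which corresponds to an s.d. of 0.25, and counting error alone accounts for an s.d. of 0.25 as well. Of the 32 steps between neighbours in the order of the 33 lines, 2 exceeded 0.48, namely the step from BXD67 to BXD51 (0.55) and that from BXD90 to BXD95 (0.90). Neighbours in an order of 33 values lie close together, so the other steps do not show whether lines differ. The 95% counting interval of the change, which covers counting error only, lay above 0 in 33 of 33 lines, above the mean of the lines in 11 and below it in 11.

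In liver, the change of *Plin4* had an s.d. of 0.86 over the 33 lines (mean 1.07), which ranked 1677 among 14107 genes, whose median was 0.25. The changes of BXD45 (-0.59, 15 reads in Ctr and 8 in SD), BXD71 (-0.36), BXD70 (-0.23) and BXD101 (-0.21) were negative, and all of their counting intervals contained 0. At the other end, BXD87 rose by 2.50 (15 reads in Ctr and 78 in SD), BXD50 by 2.33 and BXD95 by 2.27. The repeated pools differed by 0.13 in B6 and 0.45 in D2 (s.d. 0.23), and the counting error was larger than in cortex (s.d. 0.36). No step between neighbours in the order of the lines exceeded 0.45, which, as in cortex, does not show whether lines differ. The counting interval lay above 0 in 23 of 33 lines. Unlike in cortex, the lines differed about as much before SD as after it, with an s.d. of the level of 1.01 in Ctr and 0.97 in SD pools.

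**Figure D2:**
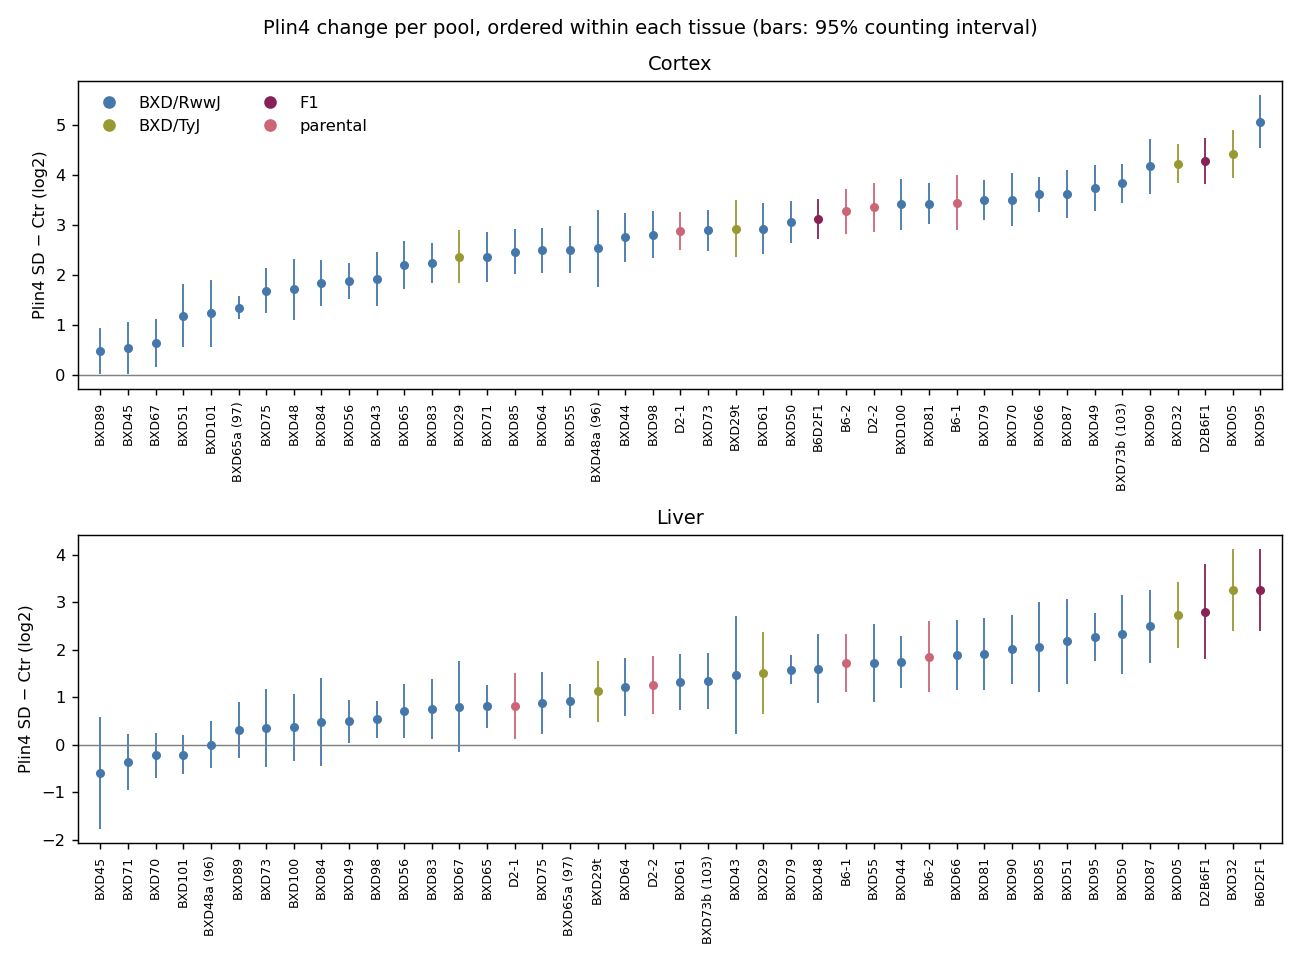
Change of *Plin4* from Ctr to SD on the log2 scale in each of 43 pools of cortex (top) and liver (bottom), ordered within each tissue, with bars for the 95% counting interval and colours for the BXD/RwwJ, BXD/TyJ, F1 and parental pools. In cortex the changes run from 0.48 in BXD89 to 5.07 in BXD95, and in liver from -0.59 in BXD45 to 3.27 in B6D2F1.

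The *Plin4* responses of lines with related names were set side by side. The changes in cortex were 1.71 in BXD48 and 2.54 in BXD48a (96), 2.20 in BXD65 and 1.35 in BXD65a (97), and 2.90 in BXD73 and 3.84 in BXD73b (103). These differences of 0.82, 0.85 and 0.94 are set beside a median difference of 1.12 over all pairs of BXD/RwwJ lines. In liver, the differences were 1.60 for BXD48, 0.11 for BXD65 and 0.98 for BXD73, against a median of 0.91 over all pairs, and with 3 such pairs no test was made. BXD65a (97), the line with the highest *Plin4* level in Ctr cortex, was also high in Ctr liver (3.68 log2 CPM), where BXD65 reached 3.21.

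Both F1 pools lay high in the range in liver, and D2B6F1 did so in cortex. In cortex, *Plin4* rose by 3.13 in B6D2F1, below the upper quartile of the BXD/RwwJ lines (3.43), and by 4.29 in D2B6F1. In liver, the rises of 3.27 in B6D2F1 and 2.81 in D2B6F1 exceeded those of all 33 BXD/RwwJ lines and of the 4 parental pools, on 11 and 8 reads in Ctr pools and 95 and 84 reads in SD pools. The Ctr liver library of D2B6F1 was the smallest of the Ctr liver libraries, with 5034166 reads, whereas that of B6D2F1 had 6862922. The part of library size in these rises was not tested. Both crosses are represented by 1 pool, so their difference from the lines was not tested. Among the BXD/TyJ pools, which entered no test, the changes in cortex were 4.43 in BXD05, 4.23 in BXD32, 2.37 in BXD29 and 2.93 in BXD29t. In liver, the changes of the same pools were 2.73, 3.26, 1.51 and 1.13, so BXD05 and BXD32 were above both BXD29 pools in each tissue. *Plin5* in liver had the same order of pairs, with changes of 0.98 in BXD05, 0.90 in BXD32, 0.29 in BXD29 and 0.26 in BXD29t.

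The parental strains did not differ detectably in the *Plin4* response. In cortex, it rose by 3.45 and 3.28 in the B6 pools and by 2.88 and 3.36 in the D2 pools, a difference of -0.25 (D2 minus B6, SE 0.22, adjusted p = 0.844, limma). In liver, it rose by 1.73 and 1.85 in the B6 pools and by 0.82 and 1.27 in the D2 pools, and although the strains did not overlap, the difference of -0.75 (SE 0.38, adjusted p = 0.238) did not pass the test. The same comparison of changes was passed by 0.0403% of all genes in cortex and 9.5% in liver. The 4 parental pools of cortex lay between 2.88 and 3.45, well inside the range of the BXD/RwwJ lines from 0.48 to 5.07.

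Of the levels of the members in the parental strains, 2 differed. *Plin2* in Ctr cortex was at 2.06 and 1.88 log2 CPM in B6 and at 2.50 and 2.43 in D2, a difference of 0.49 (SE 0.15, adjusted p = 0.0412, limma), in a comparison that 15.7% of all genes passed. With all pools but without the trend of the variances over expression level, the call of *Plin2* was lost (limma, adjusted p = 0.0711). This call was lost when 1 of 3 of the pools was left out, with an adjusted p of 0.164 without the second B6 pool, 0.212 without the first D2 pool and 0.134 without the second D2 pool. *Plin3* in SD liver was at 6.48 and 6.61 log2 CPM in B6 and at 6.95 and 6.89 in D2, a difference of 0.38 (SE 0.073, limma, adjusted p = 0.0104), where 24.2% of all genes passed. This call, too, was lost without the variance trend (limma, adjusted p = 0.109). It was lost when any of the 4 pools was left out (adjusted p from 0.0776 to 0.133). Conversely, without the second B6 pool *Plin4* passed in Ctr cortex, where its difference went from 0.62 to 0.97 (adjusted p = 0.0319, limma), and in SD cortex, where it went from 0.37 to 0.64 (adjusted p = 0.0210, limma). With all pools, no member passed the comparison of strains in SD cortex, where 12.1% of genes did (limma, adjusted p from 0.142 to 0.789), or in Ctr liver, where 11.2% did (limma, adjusted p from 0.298 to 0.640).

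Whether strains with a strong *Plin4* response in cortex also had one in liver was examined over 37 strains, with the parental pools averaged, as 1 of 15 relations between measures of the members. The changes in the tissues, which came from mice of the same lines and conditions, were related with Pearson's r = 0.472 (permutation test with 100000 resamples, p = 0.00349, adjusted p = 0.0174) and Spearman's rho = 0.445 (permutation p = 0.00618, adjusted p = 0.0266). Without BXD95 and BXD89, the strains farthest from the median in cortex, r was 0.414. Over the 33 BXD/RwwJ lines alone r was 0.424, and the adjusted p of 0.0544 (permutation test) missed the threshold. The changes of *Plin2* (r = 0.228, adjusted p = 0.328) and *Plin3* (r = 0.0775, adjusted p = 0.793) showed no such relation past the threshold in the same permutation test.

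**Figure D3:**
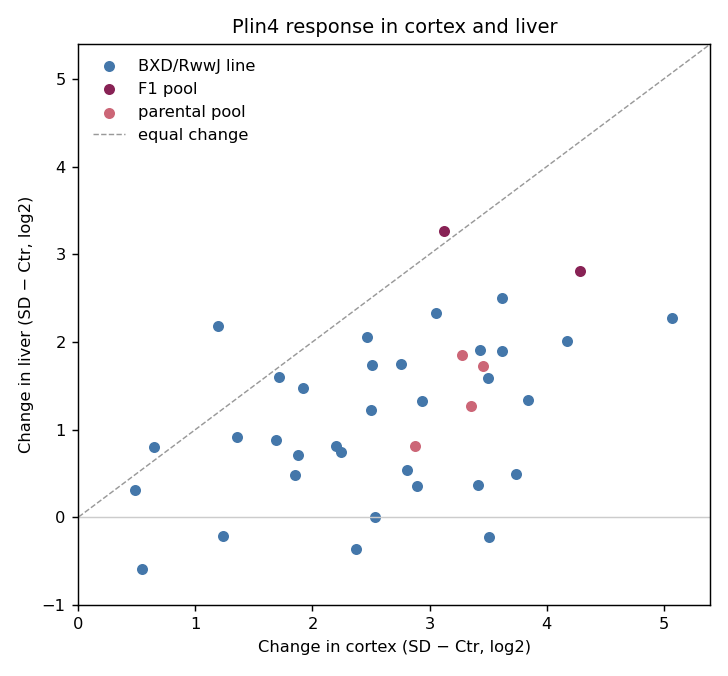
Change of *Plin4* in liver against its change in cortex, both as SD minus Ctr on the log2 scale, for 33 BXD/RwwJ lines (blue), 4 parental pools (pink) and 2 F1 pools (purple), with a dashed line of equal change. In 36 of 39 pools the point lies below the line, and r over 37 strains was 0.472.

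In liver, the change of *Plin4* was also related to that of *Plin5* (r = 0.425, permutation p = 0.0093, adjusted p = 0.0279; rho = 0.436, permutation p = 0.0075, adjusted p = 0.0266). Without B6D2F1 and BXD45, r was 0.441. This relation missed the threshold in the 33 BXD/RwwJ lines (r = 0.395, adjusted p = 0.0709, permutation test) and with 1 line of each related pair left out (r = 0.404, adjusted p = 0.0529, permutation test). The changes of *Plin2* and *Plin3* were not related to that of *Plin4* past the threshold in either tissue (r from -0.047 to 0.178, adjusted p from 0.440 to 0.793, permutation test).

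Whether the level of a strain in Ctr was related to its level after SD was examined for each member. In cortex, the relation passed for *Plin3* (r = 0.632, permutation p = 6e-05, adjusted p = 0.0009; rho = 0.674, permutation p = 1e-05, the smallest that the resamples can give). For *Plin4* in cortex, r was 0.236 (permutation test, adjusted p = 0.328) with rho = 0.140, and it fell to 0.0919 without BXD65a (97) and BXD48a (96). In liver, by contrast, the Ctr and SD levels of *Plin4* were related (r = 0.536, permutation p = 0.00053, adjusted p = 0.00397; rho = 0.448, permutation p = 0.00575, adjusted p = 0.0266), also without BXD70 and BXD43 (r = 0.493). The difference between the tissues in this relation was not tested. *Plin2* in liver had r = 0.438 (permutation test, adjusted p = 0.0257) and rho = 0.428 (adjusted p = 0.0266). The relations of *Plin2* in cortex, *Plin3* in liver and *Plin5* in liver did not pass (r from 0.167 to 0.344, permutation test, adjusted p from 0.0898 to 0.440).

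The genes around *Plin4*, *Plin5* and *Plin3* did not share the size of the *Plin4* response. Of 17 listed genes, which are the 7 between *Plin5* and *Plin3* and 5 on either side, 6 were higher and 6 lower in SD cortex, with log2 fold changes from -0.63 to 0.27 and a median of 0.0070. In liver, 7 were higher and 4 lower, from -0.58 to 0.29 with a median of 0.034. The 12 of 17 that passed in cortex are near the 68.4% of all genes there, and in liver 11 of 17 passed, against 44.2% of all genes. *Hdgfrp2*, whose annotated end overlaps that of *Plin4* on the other strand, changed by -0.081 in cortex and by -0.18 in liver on the log2 scale. A change of at least 0.5 in size was seen for *Chaf1a*, which encodes a subunit of a histone chaperone, in cortex (-0.63, SE 0.048, adjusted p = 7.79e-21) and for *Ptprs*, a receptor tyrosine phosphatase gene, in liver (-0.58, SE 0.074, adjusted p = 4.09e-10).

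**Figure D4:**
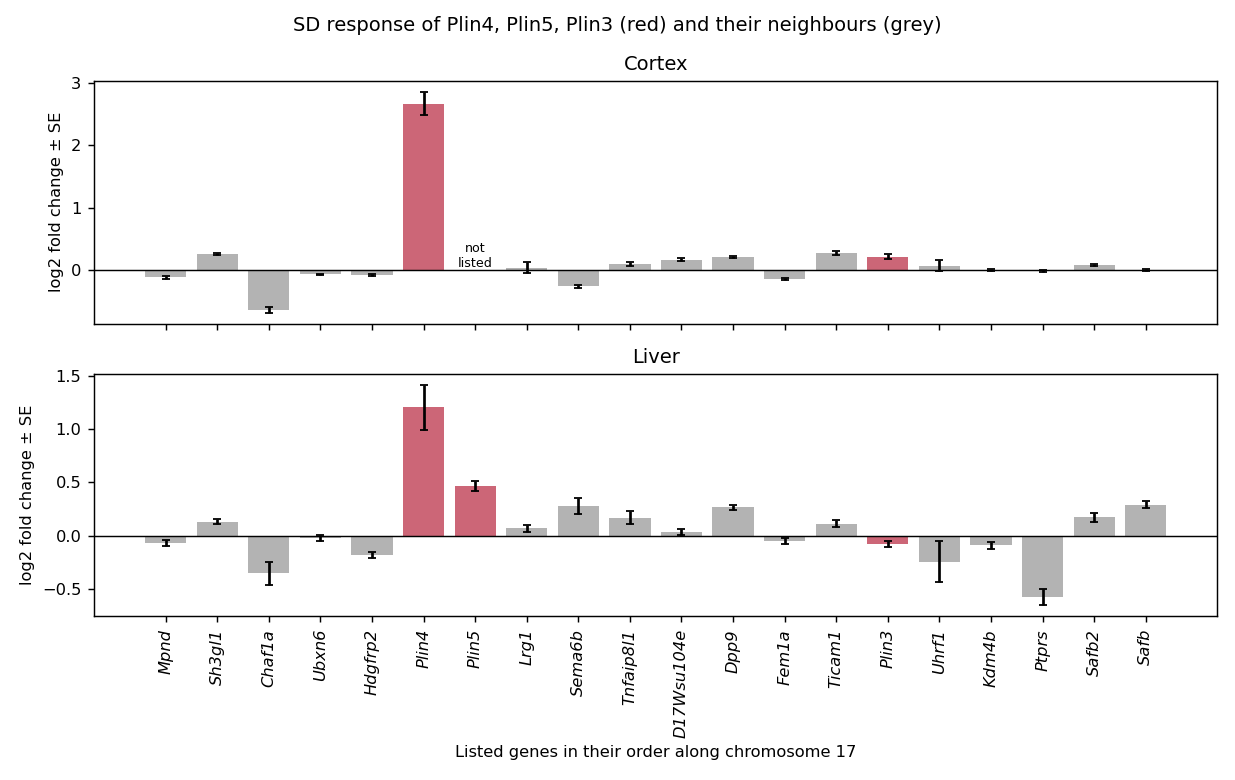
Log2 fold change of SD against Ctr with its SE for *Plin4*, *Plin5* and *Plin3* (red) and the 17 neighbouring listed genes (grey), in their order along chromosome 17, in cortex (top) and liver (bottom). The *Plin4* bars of 2.67 and 1.20 exceed those of all neighbours, which lie between -0.63 and 0.29.

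Genes that act with the perilipins at the droplet surface and in droplet growth changed in both directions, by less than *Plin4*. Of 11 listed in cortex, 4 were higher and 4 lower in SD (median log2 fold change 0.011, against -0.0097 over all genes), and of 13 in liver, 4 were higher and 1 lower (median 0.0069, against -0.0015 over all genes), or 2 lower once the line entered as a replicate block. These 8 of 11 and 5 of 13 genes are near the shares of all genes that passed in either direction (68.4% in cortex, 44.2% in liver). The largest change in liver was that of *Cidec*, which encodes a protein that enlarges droplets by fusion and is not listed in cortex. It rose by 0.97 on the log2 scale (SE 0.19, adjusted p = 1.70e-05), in 38 of 39 pools and from a median of 22 to 38 reads. *Fitm2*, needed for the budding of droplets, rose in cortex (0.22, SE 0.028, adjusted p = 4.55e-11) and liver (0.35, SE 0.042, adjusted p = 3.96e-11). *1110057K04Rik*, which encodes a lipid droplet hydrolase, rose in 39 of 39 pools in cortex (0.25) and in liver (0.24). *Aup1* (0.15) and *Pcyt1a* (0.12), the latter for the enzyme that limits phosphatidylcholine synthesis, rose in cortex, and *Spg20* (0.20) in liver.

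Of the lipolysis genes, 3 of 8 were higher and 1 lower in cortex (2 lower with lines as replicate block; median 0.054), and 3 of 9 were higher and 1 lower in liver (again 2 lower with the replicate block, and 3 with quantile normalization; median 0.086). The 4 of 8 genes that passed in cortex lie below the 68.4% of all genes there, and the 4 of 9 in liver are near 44.2%. *Pnpla2*, the gene of the main triglyceride lipase ATGL, rose by 0.15 in cortex (SE 0.037, adjusted p = 0.000159) and by 0.19 in liver (SE 0.031, adjusted p = 3.17e-07). In liver, its coactivator *Abhd5*, which perilipins bind, rose by 0.25 (SE 0.032, adjusted p = 5.00e-10) and its inhibitor *G0s2* by 0.34 (SE 0.068, adjusted p = 2.03e-05). *Pnpla3*, a related droplet gene controlled by feeding, fell by 1.55 in liver on the log2 scale (SE 0.31, adjusted p = 1.43e-05), in 32 of 39 pools. In cortex, the lysosomal lipase gene *Lipa* (0.36, SE 0.021, adjusted p = 3.83e-27) and the hormone-sensitive lipase gene *Lipe* (0.16) rose, and *Hilpda*, which encodes an inhibitor of ATGL, fell (-0.23, SE 0.036, adjusted p = 6.20e-08).

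Of the triglyceride synthesis genes, 8 of 15 were higher and 5 lower in cortex (median 0.047), and 6 of 17 were higher and 6 lower in liver (median -0.048). In all, 13 of 15 passed in cortex, against 68.4% of all genes, and 12 of 17 in liver, against 44.2%. *Lpin3*, which like the other lipin genes encodes a phosphatidate phosphatase, rose by 0.82 in cortex (SE 0.093, adjusted p = 1.01e-12) and fell by 0.60 in liver (log2 fold change -0.60, SE 0.048, adjusted p = 1.23e-18), and *Lpin1* rose by 0.86 in liver (SE 0.14, adjusted p = 1.75e-07). *Acsl3*, the acyl-CoA synthetase gene of nascent droplets, rose by 0.23 in cortex in 39 of 39 pools and had a log2 fold change of -0.73 in liver, where it fell in 39 of 39. *Gpam*, which encodes the first enzyme of glycerolipid synthesis, fell in liver (-0.52, SE 0.051, adjusted p = 1.51e-14). In cortex, *Dgat2*, for the last step of triglyceride synthesis, fell (-0.34, SE 0.069, adjusted p = 8.12e-06), as did *Acsl1* (-0.24).

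Of the targets of PPAR receptors, 4 of 11 were higher and 2 lower in cortex (median -0.0044), and 7 of 16 were higher and 1 lower in liver (median 0.096). The 6 of 11 that passed in cortex lie below the share of all genes (68.4%), and the 8 of 16 in liver are near it (44.2%). *Angptl4*, the gene of an inhibitor of lipoprotein lipase, rose in cortex (0.59, SE 0.082, adjusted p = 8.64e-10) and, in 39 of 39 pools, in liver (0.98, SE 0.053, adjusted p = 7.79e-28). In liver, the acyl-CoA thioesterase gene *Acot1* rose by 0.95 (SE 0.096, adjusted p = 7.01e-14) and *Cyp4a14*, for a fatty acid omega-hydroxylase, by 0.84 (SE 0.31, adjusted p = 0.0199). *Pdk4*, whose product restrains pyruvate oxidation, fell in liver (-0.95, SE 0.12, adjusted p = 2.08e-10), in 37 of 39 pools. In cortex, *Ehhadh* (-0.42) and the fatty acid transporter gene *Cd36* (-0.69) fell.

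Most genes of the glucocorticoid response list rose in both tissues. In cortex, 16 of 16 were higher in SD (median 0.73), against 33.0% of all genes, and in liver 14 of 16 were higher (median 0.76), against 21.5% of all genes, and 2 did not pass. The list was chosen with earlier results of these data known, so these counts do not test whether such genes rose more often than others. *Cdkn1a*, a cell cycle inhibitor gene, had the largest log2 fold change in cortex (1.64, SE 0.088, adjusted p = 4.95e-29), followed by *Map3k6* (1.31), *Hif3a* (1.19) and the phosphatase gene *Dusp1* (1.15). In liver, the largest were those of *Zbtb16* (2.08, SE 0.14, adjusted p = 1.26e-22), a transcription factor gene, *Fam107a* (2.06, on a median of 3 reads in Ctr and 14 in SD pools), the metallothionein gene *Mt2* (1.40) and *Map3k6* (1.35). Among receptors and regulators of lipid genes, 3 of 9 were higher and 4 lower in cortex (median 0.053, with 68.4% of all genes past the test in either direction), with rises of *Ppard* (0.23) and *Ppara* (0.22) and falls of the lipogenic factor gene *Srebf1* (-0.33) and the mineralocorticoid receptor gene *Nr3c2* (-0.29). In liver, 3 of 9 were lower, against 22.6% of all genes, and 6 did not pass (median -0.062). Under 10 of 12 alternatives 1 of the 9 was higher, and 5 were lower with lines as replicate block and with all 43 pools. *Pparg* (-0.69, SE 0.11, adjusted p = 5.37e-08), *Srebf1* (-0.63, SE 0.036, adjusted p = 3.47e-26) and *Nr3c2* (-0.40) fell there.

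**Figure D5:**
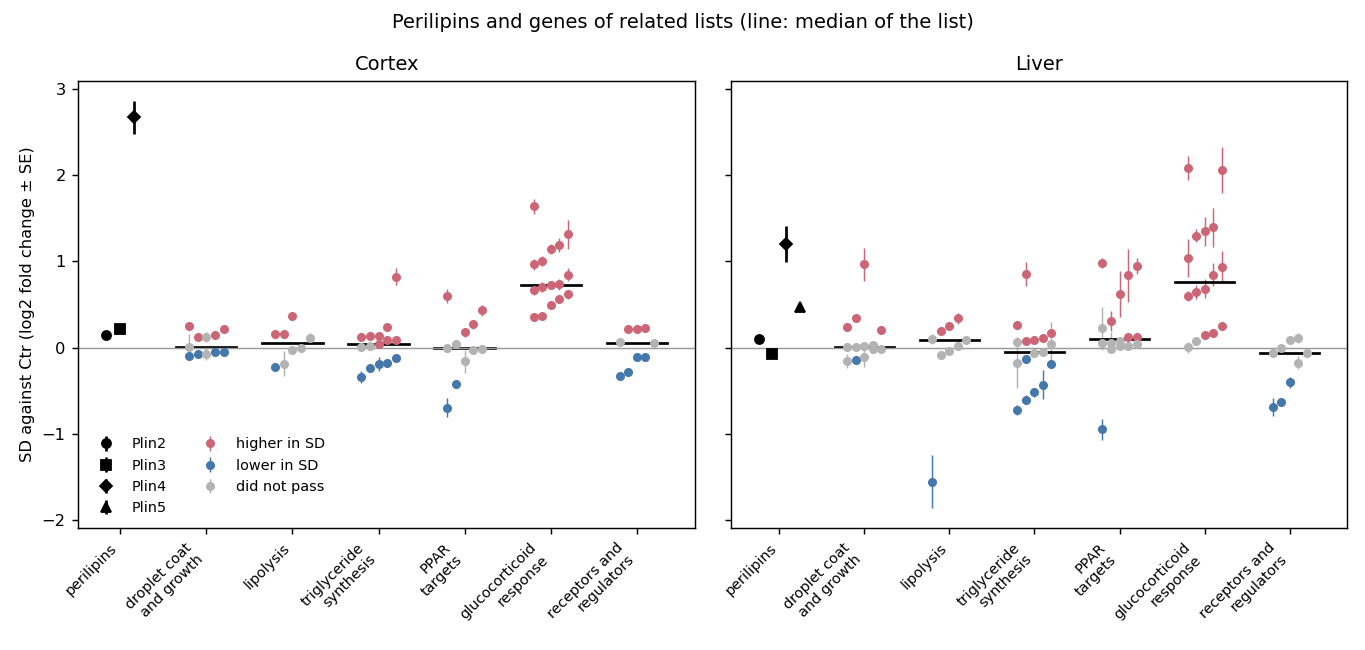
Log2 fold change of SD against Ctr with its SE for the perilipins (black symbols) and for the genes of 6 lists, in cortex (left) and liver (right), in red where higher and in blue where lower in SD (adjusted p under 0.05) and in grey otherwise, with the median of each list as a line. The medians of the glucocorticoid response list are 0.73 and 0.76, and those of the other lists lie between -0.062 and 0.096. The lists were chosen with earlier results of these data known.

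The genes whose change over the 39 pools was most like that of *Plin4* were named by Pearson's r, given as a description. In cortex these were *Xdh* (r = 0.835), which encodes xanthine dehydrogenase, *Fkbp5* (0.830), for a cochaperone of steroid receptors, *Sult1a1* (0.820), a sulfotransferase gene, *Usp54* (0.816) and *Gpt2* (0.799), an alanine transaminase gene. All 5 rose in SD cortex, with log2 fold changes of 1.02 for *Xdh*, 0.97 for *Fkbp5*, 0.84 for *Sult1a1*, 0.22 for *Usp54* and 0.63 for *Gpt2*. In liver they were *Fam46c* (r = 0.672), *Slc41a3* (0.647), *Phf12* (0.606), *Baiap2l1* (0.604) and *Gcnt2* (0.592), and *Phf12*, unlike the other 4, had no change past the threshold (-0.044, adjusted p = 0.340). The lists of the tissues held no gene in common. With 5 genes taken from 14896 in cortex and 5 from 14107 in liver, this does not show that the tissues differ. Over the liver pools, the r of the 5 cortex genes was 0.136 for *Xdh*, 0.419 for *Fkbp5*, -0.151 for *Sult1a1*, 0.279 for *Usp54* and 0.0986 for *Gpt2*. The r of *Plin5* in liver was 0.402, which ranked 321. The genes of a tissue were read from the same libraries. Cortex and liver pools came from mice of the same line and condition, and whether the same animals entered both is not given.

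Markers of other cell types were examined beside these changes. Of all genes, 68.4% passed the test in either direction in cortex, 33.0% with a higher level in SD, and 44.2% in either direction in liver. The calls among a few markers must be read against these shares. Of 7 adipocyte markers, *Retn* and *Adrb3* are listed in cortex, the former higher (0.40, SE 0.13, adjusted p = 0.00509) and the latter lower in SD (-0.45, SE 0.077, adjusted p = 2.79e-07), and the call of *Retn* was lost in the 33 BXD/RwwJ lines alone (adjusted p = 0.0510). The sum of both ranged from 1.66 to 3.71 CPM in Ctr and from 1.25 to 2.88 CPM in SD pools. *Adipoq*, *Plin1*, *Lep*, *Cfd* and *Fabp4* are not listed in cortex. In liver, *Adipoq*, *Plin1*, *Lep* and *Retn* are not listed, and the 3 adipocyte markers that are did not pass (adjusted p from 0.0826 to 0.424), although *Adrb3* fell with lines as replicate block (-0.39, adjusted p = 3.80e-06). Their sum ranged from 28 to 80.8 CPM in Ctr and from 19.3 to 88.0 CPM in SD liver. Of 4 astrocyte markers in cortex, 1 was higher in SD, with log2 fold changes from -0.018 to 0.13 and sums from 416 to 1059 CPM in Ctr and from 445 to 690 CPM in SD pools. Of 4 endothelial markers, 2 were higher and 2 lower, with sums from 164 to 282 CPM in Ctr and from 159 to 219 CPM in SD pools. The 3 skeletal muscle markers listed in cortex summed to 9.98 to 19.2 CPM in Ctr and 9.18 to 14.3 CPM in SD pools, and *Myh4* among them fell (-0.72, SE 0.12, adjusted p = 2.49e-07). Of 4 oligodendrocyte markers in cortex, *Mog* (-0.27, adjusted p = 2.32e-05) and *Mag* (-0.18, adjusted p = 0.000986) fell, with sums from 2142 to 3734 CPM in Ctr and from 2003 to 3742 CPM in SD pools. Of 4 neuron markers, *Syt1* (-0.16, adjusted p = 8.37e-13) and *Slc17a7* (-0.12, adjusted p = 1.53e-08) fell, with sums from 7290 to 8294 CPM in Ctr and from 7092 to 7980 CPM in SD pools. The part of other cell types in the change of *Plin4* was not tested beyond these values.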

How the data were processed

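RNA-seq libraries of pooled cortex and liver RNA were analysed. Per the paper's methods, the authors made stranded mRNA libraries, used STAR to align single-end reads to mm9 and htseq-count to assign them to RefSeq genes by strand, excluded weakly expressed genes, applied edgeR's TMM normalization and deposited log2 CPM values. The prior count added before the logarithm was 1.00 in cortex and 0.998 in liver on average. Whole reads, within 0.02 of a read, were recovered for 100% of the values.

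SD and Ctr pools were compared with limma 3.58.1 (R 4.3.3), whose moderated variances followed a trend over expression level and which was checked on simulated data, with Benjamini-Hochberg adjustment over all genes of a tissue and a threshold of 0.05. Intervals of a log2 fold change are 1.96 SE to either side. The paper names voom weights, which were run as an alternative on the recovered reads. The SD comparison did not pair the pools of a line, and the line as a replicate block was run as an alternative. Its replicates are mostly pools of different lines, so its p-values measure the spread of levels between lines. The tissue comparison used differences within pools, and the parental comparison used the repeated pools of each strain. As a check of pairing, the Ctr and SD pools of each line were correlated over genes as deviations from the condition means, which gave at least 0.299 in cortex and 0.169 in liver, so the lines pair the samples. Relations over strains used permutation tests with 100000 resamples in numpy 2.4.6, adjusted over 15 relations. The tests are two-sided. Named were all members, up to 4 genes per list with the largest change past the threshold, the 5 genes most like *Plin4*, neighbours past 0.5, and *Hdgfrp2* and the markers, added after their values were seen. A gene that this rule names is not reported here. Members and lists were chosen with earlier results of these data known.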

Additional observations from a re-analysis of the deposited data

Results flagged for a closer look

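The response to SD differed between the tissues for *Plin4*, by -1.47 on the log2 scale (liver minus cortex, limma, adjusted p = 9.07e-11), with changes of 2.67 in cortex and 1.20 in liver and a smaller change in liver in 36 of 39 pools. It also differed for *Plin3*, by -0.292 (adjusted p = 6.46e-10), with changes of 0.21 in cortex and -0.078 in liver and a smaller change in liver in 36 of 39 pools. *Plin4* rested on a median of 27 reads per Ctr pool in liver and 41 in cortex. Among the 4 BXD/TyJ pools, the only group of a size that was searched for single pools apart from the rest, no level or change of a member stood apart.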

How the results depend on the processing

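Over 12 alternatives, the SD response of each member kept its direction and its call in both tissues, as did the tissue differences over 6 alternatives, in which that of *Plin4* ranged from -1.47 to -1.17. With lines as replicate block, the adjusted p of *Plin2* in liver was 0.00197, and the replicate block changed no call of a member. The relation of the *Plin4* changes between tissues weakened in the 33 BXD/RwwJ lines (r = 0.424, adjusted p = 0.0544), as did that of *Plin5* with *Plin4* (0.395) and, with related lines left out, the latter again (0.404). That of the Ctr and SD levels of *Plin3* in liver passed with libraries centred on their medians (0.479). Relations near 0 changed sign for *Plin2* with *Plin4* in liver (0.00243) and for *Plin3* between tissues (-0.0121).

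Calls between the parental strains rest on 2 pools each and were unstable. Without 1 pool, the number of genes called, with the lone pool of a strain assumed to vary like the others, was 1264 to 2871 for the Ctr level, 876 to 1050 for the SD level and 3 to 57 for the change in cortex (2344, 1798 and 6 with all pools), and 121 to 504, 0 to 690 and 0 to 1 in liver (1583, 3420 and 1340 with all pools). Without the variance trend it was 754, 690 and 0 in cortex and 421, 229 and 0 in liver. Among genes averaging 0 log2 CPM or more, it was 10 for the change in cortex. Among members, leaving out 1 parental pool turned the sign for *Plin3* in Ctr cortex (range -0.149 to 0.089), for its change in cortex (-0.00314 to 0.19), for *Plin5* in Ctr liver (-0.00624 to 0.172) and for its change in liver (-0.0455 to 0.238). Centring on medians took *Plin2* (0.36, adjusted p = 0.0213) and *Plin3* (0.36, adjusted p = 0.0288) past the threshold in the liver change, and *Plin2* (0.25, adjusted p = 0.0491) and *Plin5* (0.25, adjusted p = 0.0470) in the SD level of liver. The filter on low levels took the liver change of *Plin2* past it as well (0.28, adjusted p = 0.0497). The causes were not tested. Low read numbers limit *Plin4* in liver.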
